A study of Mus musculus with 8 samples.

Results

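The genes described here are the receptors, or single chains of receptors, for interleukins, interferons, colony-stimulating factors, the interleukin-6 family and transforming growth factor beta (TGF-beta). They were a list of 39 mouse genes, and the regions of open chromatin that the deposited count table assigns to each symbol were taken once per position. Of the 39 genes, 30 had at least 1 region, and these held 116 of the 46512 regions used. Accessibility at the other 9, namely Il13ra1, Il13ra2, Il17rb, Il22ra1, Il22ra2, Ifnlr1, Csf1r, Csf2rb and Lepr, was not analysed here, and 6 of them enter only the promoter windows below. Counts in 115 of the 116 regions passed the filter on low counts; the exception was a 103 bp region in Il9r. ATAC-seq, where a transposase inserts sequencing adapters into open DNA, was run on T cells sorted from C57BL/6 mice with a red fluorescent protein (RFP) reporter at Foxp3, the transcription factor gene that defines regulatory T cells (Tregs). There were 4 groups of 2 libraries, each library pooled from 3 mice: spleen Tregs of males, visceral adipose tissue (VAT) Tregs of males, VAT Tregs of females, all sorted as RFP-positive, and CD4 T cells of male VAT sorted as RFP-negative. Every group carried the reporter allele, and the ages of the mice are not given in the labels. The series asks how Tregs of visceral fat differ between the sexes. Its design text mentions spleen Tregs of females as well, whereas both spleen libraries are labelled male, and the labels were followed. Because no female spleen library was used, the female VAT Tregs can be set beside spleen Tregs of the other sex only.

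Many cytokine receptors, though not all on this list, are assembled from a chain that gives specificity and a signalling chain that several receptors share. The common gamma chain (Il2rg) serves the receptors of the interleukin-2 family, gp130 (Il6st) serves the interleukin-6 family, and most of these receptors signal through Janus kinases and STAT factors. Tregs depend on interleukin 2 for survival and on TGF-beta receptors, which signal through SMAD proteins, for Foxp3 expression in the periphery. ATAC-seq reads the openness of DNA and not expression, and in pooled cells a smaller share of cells with open DNA and less opening per cell cannot be told apart.

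The 250 bases before the RefSeq start (GRCm38.p6) are shown for 5 genes, 5' to 3' on the gene's own strand. RefSeq starts were at hand for 25 of the 30 genes with a region, but not for Il10ra, Il10rb, Il27ra, Il2rb and Tgfbr3. Among the 25, Il9r, Il2rg and Csf2ra had a start that lay in a region that differed between groups in at least 1 of the 4 comparisons. Ifnar1 and Ifngr1 are shown because the region over the start passed no test while regions nearby did. Positions were chr11:32200280-32200529, minus strand for Il9r, chrX:101268256-101268505, minus strand for Il2rg, chr19:61228419-61228668, minus strand for Csf2ra, chr16:91484965-91485214, plus strand for Ifnar1, and chr10:19591699-19591948, plus strand for Ifngr1. Capitals mark matches on either strand to motifs of STAT (TTCNNNGAA), AP-1 (TGANTCA), ETS (CCGGAA), SP1 (GGGCGG) and SMAD (GTCTAGAC) factors, and neighbouring matches can overlap.
Il9r: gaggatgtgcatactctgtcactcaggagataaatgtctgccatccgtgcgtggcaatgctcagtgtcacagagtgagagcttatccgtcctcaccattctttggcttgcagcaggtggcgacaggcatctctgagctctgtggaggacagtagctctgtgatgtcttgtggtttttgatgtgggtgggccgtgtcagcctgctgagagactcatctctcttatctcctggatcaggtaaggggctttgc
Il2rg: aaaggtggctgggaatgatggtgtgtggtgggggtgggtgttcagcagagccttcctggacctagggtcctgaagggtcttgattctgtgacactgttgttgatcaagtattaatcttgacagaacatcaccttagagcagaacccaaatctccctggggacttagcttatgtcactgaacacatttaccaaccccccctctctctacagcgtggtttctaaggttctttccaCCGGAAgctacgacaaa
Csf2ra: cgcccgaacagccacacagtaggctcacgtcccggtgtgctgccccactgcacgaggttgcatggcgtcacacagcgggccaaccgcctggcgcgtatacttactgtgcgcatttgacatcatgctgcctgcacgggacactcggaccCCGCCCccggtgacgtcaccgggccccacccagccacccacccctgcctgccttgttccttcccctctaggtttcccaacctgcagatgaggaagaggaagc
Ifnar1: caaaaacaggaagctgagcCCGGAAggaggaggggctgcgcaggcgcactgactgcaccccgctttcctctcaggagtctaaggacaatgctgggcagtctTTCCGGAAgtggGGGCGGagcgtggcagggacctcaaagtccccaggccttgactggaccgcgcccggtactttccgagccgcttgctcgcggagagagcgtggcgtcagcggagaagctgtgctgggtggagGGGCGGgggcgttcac
Ifngr1: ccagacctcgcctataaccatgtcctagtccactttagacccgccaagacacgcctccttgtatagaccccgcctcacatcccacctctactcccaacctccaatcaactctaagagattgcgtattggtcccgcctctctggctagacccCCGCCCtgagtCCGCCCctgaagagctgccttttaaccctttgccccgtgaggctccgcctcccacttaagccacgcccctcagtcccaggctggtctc
Il9r held none of the 5 motifs. In Il2rg the capitals are 1 ETS match that begins 17 bases before the start, and in Csf2ra 1 SP1 match at 102 bases. Ifnar1 held ETS matches at 231, 149 and 147 bases, the last 2 overlapping on opposite strands, and SP1 matches at 137 and 16 bases. Ifngr1 held SP1 matches at 99 and 88 bases. Of 36 such windows of 31 members, 19 held SP1, 6 AP-1, 5 ETS, 2 STAT and 0 SMAD. Among all 32851 windows of the same length the shares were 32.7% for SP1, 6.75% for AP-1, 12.0% for ETS, 7.02% for STAT and 0.167% for SMAD. A match is a description of the letters and not a binding site.

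Counts used per library ran from 5722254 to 15798875. Values are given as CPM, a region's count relative to its library's total after trimmed-mean-of-M (TMM) scaling, with replicate 1 before replicate 2 throughout. Regions of Foxp3 together held 53.5 to 112 CPM in the 6 Treg libraries and 38.3 to 40.8 in the CD4 libraries. The female libraries had 112 and 110. Foxp3 lies on the X chromosome, where the 991 regions tested had a median log2 fold change of -0.59 in male over female VAT. How far this holds for Foxp3 was not tested. Ctla4 separated the groups too, with 71.6 and 94.6 CPM in CD4 cells and 103 to 130 in Tregs. The other Treg markers listed, Il2ra, Ikzf2, Ikzf4, Tnfrsf18 and Tnfrsf4, overlapped. Il2ra regions held 55.1 and 63.0 CPM in CD4 cells and 51.1 to 77.9 in Tregs. Tnfrsf4 regions held 75.9 and 97.4 CPM in CD4 cells and 89.8 to 152 in Tregs. Male VAT Treg replicate 1 stood apart, where regions under 1000 bp held 5.63% of the counts, while they held 3.64 to 4.42% in the other 7 libraries, so the counts of regions called in comparisons of male VAT Tregs are also given without it. Of 11 myeloid markers 7 had a region, with 208 to 235 CPM in all in the libraries of the other groups and 182 to 233 in male VAT Tregs, and Lyz2, Adgre1, S100a8 and Clec7a had none. Of 6 adipocyte markers 5 had a region, with 103 to 117 CPM in male VAT Tregs and 131 to 144 elsewhere, and Lep had none. B cell markers (6 of 7 with a region, Ms4a1 without) ran from 92.9 to 135 CPM, and CD8 and NK cell markers (4 of 6, Cd8a and Ncr1 without) from 152 to 171. Stromal and endothelial markers (6 of 8, Pdgfrb and Dcn without) ran from 198 to 226 CPM and T cell markers (7 of 7) from 258 to 385. Accessibility at such genes can exist without expression, and the part of other cells in the results was not tested.

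The 116 receptor regions were spread unevenly over the genes. Tgfbr2, the ligand-binding TGF-beta receptor, had 23 and Ifngr1, the ligand-binding chain of the interferon-gamma receptor, had 11, while Il21r had 8 and Il20rb 6. The width of a region had a median of 1192 bp, with 58 regions under 1000 bp. Of the 116, 60 overlapped the body of the receptor gene and 56 lay outside it, by up to 194 kb. The table also assigns 24 of them to at least 1 other gene, and 1 region each is shared by Ifnar2 with Il10rb and by Il17rc with Il17re. A region was called where the adjusted p was under 0.05, and 31 regions at 17 genes were called in at least 1 comparison. Of those 31, 20 were under 1000 bp, 16 lay outside the gene body and 3 held a start, of 16 regions that hold a start of the 25 genes with one at hand. How many of all regions were called in at least 1 comparison, and how many of those were narrow, was not counted. The number and widths of the called regions therefore cannot be read as a trait of receptor genes, and shares of all regions are given per comparison below. The plot of called regions by library shows all 31.

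**Figure D1:**
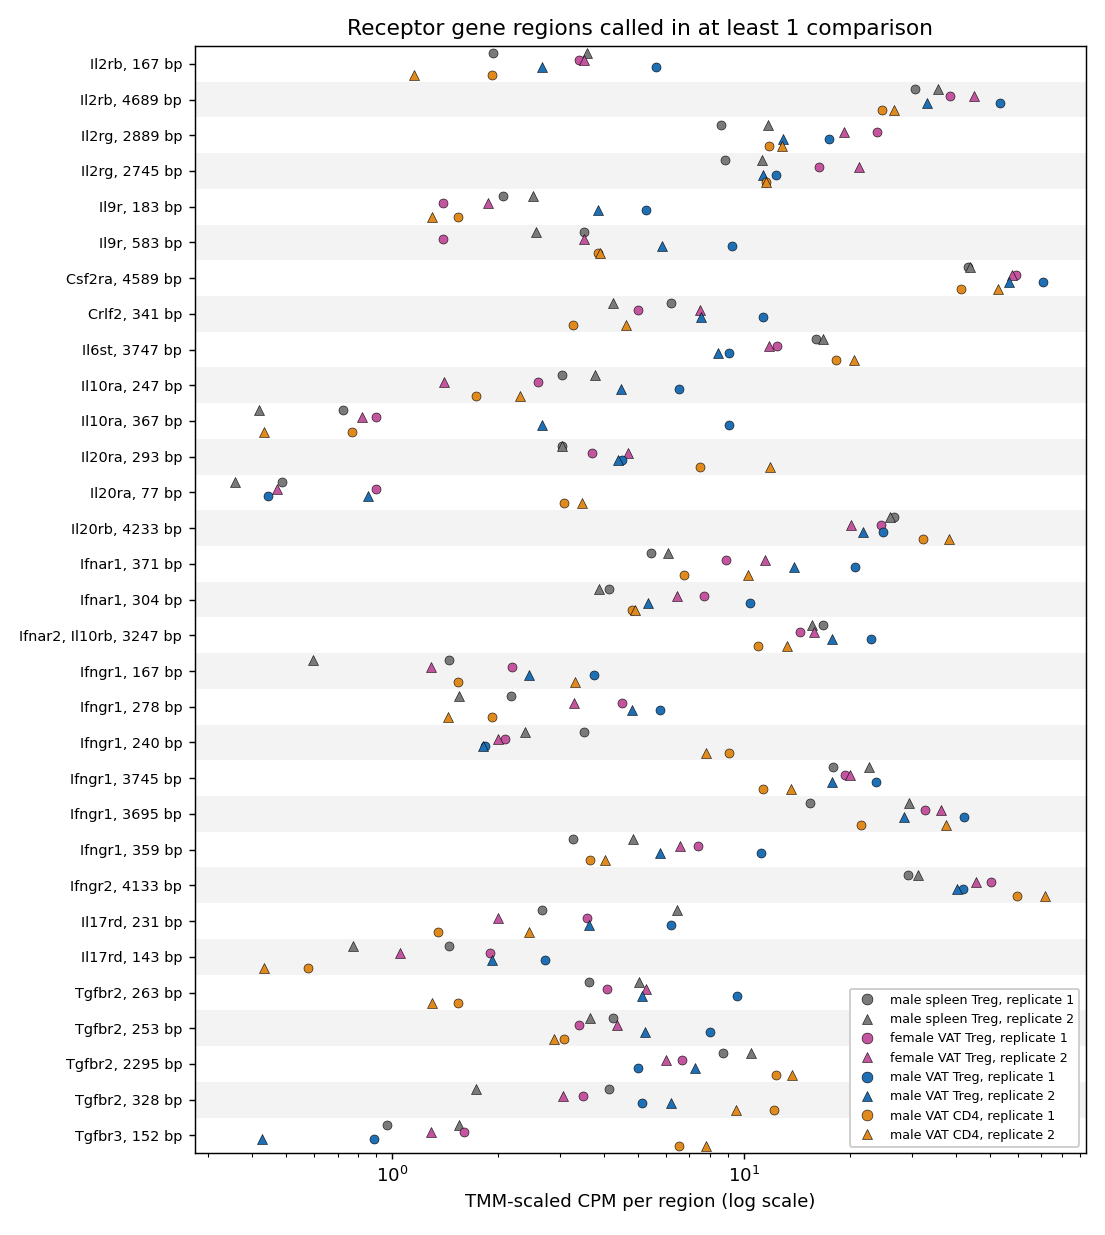
TMM-scaled CPM (log axis) in each of the 8 libraries for the 31 called regions of receptor genes, labelled by gene and width. Circles are replicate 1 and triangles replicate 2. The blue male VAT Treg points lie at the right in the narrow Il10ra and Il9r regions and the 371 bp Ifnar1 region. The orange CD4 points lie at the right in Tgfbr3, Il20ra and the 240 bp Ifngr1 region.

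Between male and female VAT Tregs, 5 receptor regions were higher in males and 0 lower, all under 1000 bp. They belong to Il10ra (2 regions), Il9r (2 regions) and Ifnar1, and the log2 fold changes ran from 0.78 to 2.79. The 5 were 4.35% of the 115 tested, beside 2.04% of all 45709 regions called higher and 1.21% called lower. Among regions under 1000 bp they were 5 of 57, or 8.77%, beside 4.68% of all such regions. The median log2 fold change was 0.03 over the receptor regions and 0.01 over all regions. Taking an unadjusted p under 0.05, 14 were higher and 7 lower, beside 3078 and 3052 of all 45709 regions. DESeq2's Wald test gave 2 higher and 0 lower, beside 354 and 152 of all regions. The count higher was 0 without male VAT Treg replicate 1, beside 0.543% of all regions. It was 1 and 2 without female VAT Treg replicate 1 and 2, and without male replicate 2 there was 1 lower.

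Between Tregs of male VAT and of male spleen, 11 receptor regions were higher in fat and 1 was lower. The higher ones belong to Ifngr1 (4 regions), Ifnar1 (2 regions), Il10ra, Il9r, Crlf2, Tgfbr2 and Csf2ra, and the lower one to Il6st. The 11 were 9.57% of those tested, beside 4.64% of all regions, and the 1 lower was 0.87%, beside 2.09%. Of the 57 under 1000 bp, 9 were higher, or 15.8%, beside 10.2% of all such regions. Median log2 fold changes were 0.04 for the receptor regions and -0.01 for all regions. DESeq2's Wald test gave 3 higher and 1 lower, beside 1113 and 249 of all 45709 regions. Once male VAT Treg replicate 1 was left out, 2 were higher, beside 1.67% of all regions. The count higher was 7 and 4 without spleen replicate 1 and 2, and the count lower was 3 without male replicate 2 and 0 without spleen replicate 2. With TMM scaling on narrow regions alone the split was 4 higher and 2 lower.

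Between male VAT Tregs and the CD4 cells of the same fat, 15 receptor regions were higher in Tregs and 9 lower. The higher ones belong to Ifngr1 (3 regions), Il10ra, Il2rb, Il17rd and Tgfbr2 (2 regions each), Ifnar1, Crlf2, Il9r and the region shared by Ifnar2 and Il10rb. The lower ones belong to Tgfbr2 and Il20ra (2 regions each), Tgfbr3, Ifngr1, Il6st, Ifngr2 and Il20rb. The shares were 13.0% higher and 7.83% lower, beside 5.18% and 2.51% of all regions. Under 1000 bp they were 12 higher and 5 lower of 57, or 21.1% and 8.77%, beside 10.3% and 3.73%. DESeq2's Wald test gave 6 higher and 6 lower, beside 1252 and 608 of all 45709 regions. With male VAT Treg replicate 1 left out, 1 was higher, beside 1.86% of all regions, and 5 were lower. Without male replicate 2, 25 were higher, without CD4 replicate 1, 4 were higher, and without CD4 replicate 2, 4 were lower. With TMM scaling on narrow regions alone the split was 4 higher and 11 lower. Apart from the Wald test and the shares higher without male VAT Treg replicate 1, shares of all regions under these alternatives are not given. This holds for all 4 comparisons, so a change in these counts cannot be told from a change over all regions.

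Between Tregs of female VAT and of male spleen, 3 receptor regions were higher in female fat and 0 lower. They belong to Il2rg (2 regions) and Ifngr2. The 3 were 2.61% of those tested, beside 1.18% of all regions higher and 0.197% lower. Il2rg lies on the X chromosome, where 178 of the 991 regions tested were called higher, beside 541 of all 45709 regions. The share of receptor regions called higher here therefore cannot be read as a trait of receptor genes. Taking an unadjusted p under 0.05, 10 were higher and 7 lower, beside 2475 and 1746 of all 45709 regions. DESeq2's Wald test gave 2 higher and 0 lower, beside 247 and 34 of all regions. The count higher was 1 without either female library and 0 without spleen replicate 1. Sex and tissue differ together here and cannot be told apart, and the comparison shares its spleen libraries with that of male VAT.

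Of the 44 calls over the 4 comparisons, 16 were kept under the DESeq2 Wald test, each other scaling, no filter and the replicate block. They were the 583 bp Il9r and 367 bp Il10ra regions over female VAT, and the 371 bp Ifnar1, 278 bp Ifngr1, 367 bp Il10ra and Il6st regions over spleen. Over CD4 cells they were the 278 bp and 240 bp Ifngr1, 77 bp Il20ra, 367 bp Il10ra, 263 bp and 2295 bp Tgfbr2, Il6st, Ifngr2 and Tgfbr3 regions, and in female VAT over spleen the 2889 bp Il2rg region. For the other 28 calls the adjusted p values that missed the threshold are given gene by gene, with TMM on regions under 1000 bp called narrow-region TMM.

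**Figure D2:**
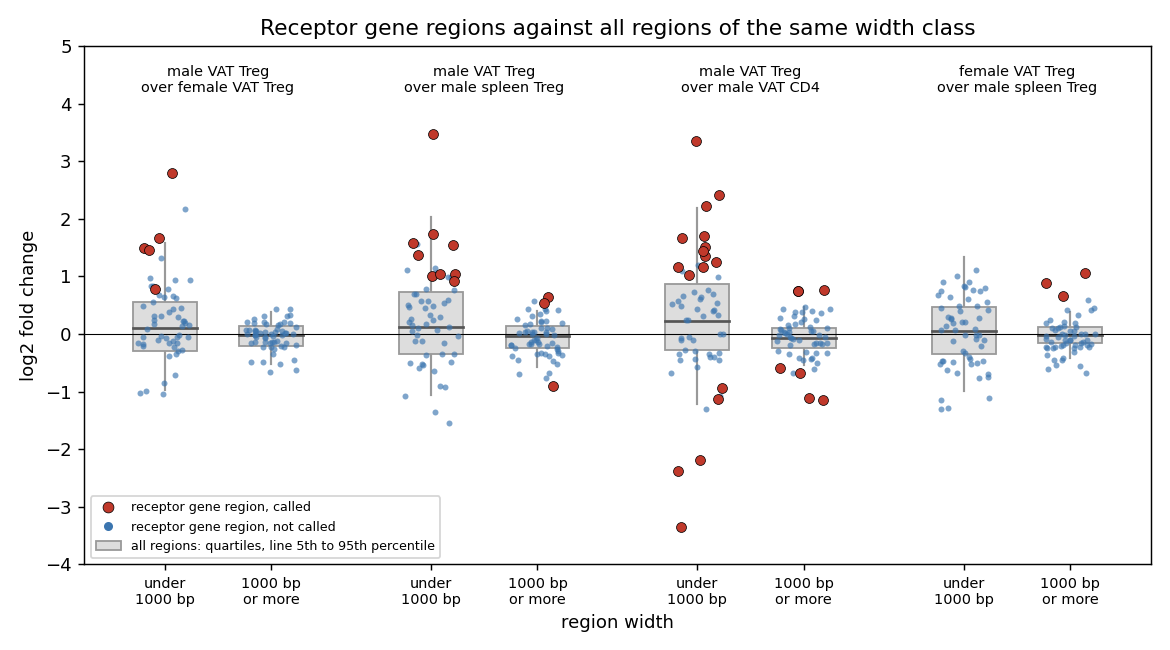
log2 fold change of the 115 receptor gene regions (points) in the 4 comparisons, split by region width, over the quartiles (box) and the 5th to 95th percentile (line) of all regions of that width. Red points were called; in male over female VAT Tregs all 5 are narrow regions above 0.

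Among the chains of the interleukin-2 family, Il9r and Il2rg had called regions over the gene start. Il9r, which gives specificity for interleukin 9, had a 583 bp region at chr11:32200106-32200689 that holds the start and the promoter printed above. Its CPM was 9.25 and 5.87 in VAT Tregs of males, 1.40 and 3.52 in those of females, 3.52 and 2.57 in spleen Tregs, and 3.85 and 3.89 in CD4 cells. Both male VAT Treg libraries stood above the other 6. The log2 fold change was 1.66 ± 0.36 over female VAT (adjusted p = 0.000573) and 1.37 ± 0.34 over spleen (adjusted p = 0.00246), where ± is the standard error. Over CD4 cells the region missed the threshold (adjusted p = 0.0678). A second Il9r region, 183 bp inside the gene at chr11:32196193-32196376, had 5.26 and 3.84 CPM in VAT Tregs of males, 1.40 and 1.88 in those of females, 2.06 and 2.51 in spleen Tregs, and 1.54 and 1.30 in CD4 cells. Again the male VAT Treg libraries lay above all others, with log2 fold changes of 1.49 ± 0.44 over female VAT (adjusted p = 0.0313) and 1.70 ± 0.49 over CD4 cells (adjusted p = 0.0117).

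The Il9r calls were lost in several alternatives. Without male VAT Treg replicate 1, the adjusted p values over female VAT were 0.0915 for the 583 bp region and 0.258 for the 183 bp region, and those over spleen and CD4 cells were 0.173 and 0.185. Without female VAT Treg replicate 1 they were 0.302 and 0.425 over female VAT, and without replicate 2 the narrower region had 0.19. Leaving out spleen replicate 2 gave 0.14 for the wider region, and leaving out CD4 replicate 1 or 2 gave 0.0698 or 0.149 for the narrower. The Wald test gave the wider region 0.0691 over spleen, and the narrower 0.165 over female VAT (0.0668 with narrow-region TMM) and 0.0621 over CD4 cells. The log2 fold changes stayed between 0.98 and 2.44 in all of these fits with a library left out. The count table also assigns these regions to Snrnp25. Mast cells and innate lymphoid cells also carry this receptor. Of 6 markers of mast cells, eosinophils and innate lymphoid cells, only Kit and Cpa3 had a region, and Mcpt4, Siglecf, Gata2 and Epx had none. The 2 together held 52.0 to 54.2 CPM in VAT Tregs of males, 36.0 to 40.4 in those of females, 38.9 to 48.9 in spleen Tregs and 43.4 to 47.2 in CD4 cells. Kit held 37.6 and 37.1 CPM in VAT Tregs of males and 23.6 to 32.6 in the other groups. Cpa3 was not highest there, with 16.5 and 14.9 CPM, and held 12.3 and 12.4 in VAT Tregs of females. It held 16.2 and 15.2 in spleen Tregs and 18.7 and 16.3 in CD4 cells. The part of such cells in the Il9r result was not tested.

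Il2rg, the common gamma chain gene on the X chromosome, was most open in female VAT Tregs. The 2889 bp region over its start at chrX:101266816-101269705 had 23.8 and 19.2 CPM in VAT Tregs of females, 17.5 and 12.9 in those of males, 8.61 and 11.7 in spleen Tregs, and 11.8 and 12.8 in CD4 cells. The female libraries lay above all male ones. The log2 fold change of female VAT over male spleen was 1.06 ± 0.22 (adjusted p = 0.000334). Between male and female VAT it was -0.49 with a 95% interval of -0.90 to -0.08 (adjusted p = 0.221), and between male VAT and male spleen 0.57, interval 0.14 to 0.99 (adjusted p = 0.0954). A second region 4.43 kb away, inside Med12 at chrX:101272685-101275430, had 16.4 and 21.2 CPM in VAT Tregs of females, 12.3 and 11.3 in those of males, 8.85 and 11.2 in spleen Tregs, and 11.6 and 11.5 in CD4 cells. Here too the female libraries lay highest, with a log2 fold change over spleen of 0.88 ± 0.22 (adjusted p = 0.00934). Female cells carry a further X chromosome, and the 991 X-linked regions tested had a median log2 fold change of 0.64 in this comparison and -0.59 in male over female VAT. How far this holds for Il2rg was not tested. The first call was lost without female VAT Treg replicate 1 (adjusted p = 0.141) or spleen replicate 1 (0.11). The second was lost without female replicate 2 (0.5), spleen replicate 1 (0.328) or spleen replicate 2 (0.0544), and under the Wald test (0.0728) and narrow-region TMM (0.157). The count table also assigns both regions to Med12, Gm614 and Gm19763.

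Il2rb, the signalling chain that receptors for interleukins 2 and 15 share, was more open in male VAT Tregs than in CD4 cells. Its 4689 bp region at chr15:78491410-78496099 inside the gene had 53.5 and 33.1 CPM in VAT Tregs of males, 38.4 and 45.2 in those of females, 30.6 and 35.5 in spleen Tregs, and 24.7 and 26.7 in CD4 cells. All 6 Treg libraries lay above both CD4 libraries. The log2 fold change over CD4 cells was 0.76 ± 0.19 (adjusted p = 0.00272), while over female VAT it was 0.06 (interval -0.29 to 0.42) and over spleen 0.40 (interval 0.04 to 0.75, adjusted p = 0.203). A 167 bp region of the gene, also assigned to Tmprss6, had means of 4.15 CPM in male VAT Tregs and 1.54 in CD4 cells, a log2 fold change of 1.502 ± 0.468 (adjusted p = 0.0244). Without male VAT Treg replicate 1 the adjusted p was 0.402 for the wide and 0.552 for the narrow region, and it was 0.0626 for the wide one without CD4 replicate 1 and 0.3 for the narrow one without CD4 replicate 2. Narrow-region TMM gave 0.107 and 0.1, and the Wald test 0.151 for the narrow one. The remaining chains of this family that were tested had no called region. Il21r, which binds interleukin 21, had 8 regions with log2 fold changes of -0.60 to 0.42 over spleen and -0.42 to 0.66 over CD4 cells, the smallest adjusted p in any comparison being 0.19. Il15ra, which presents interleukin 15, had 2 regions and a smallest adjusted p of 0.22.

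The receptor region with the largest log2 fold change over female VAT was at Il10ra, the ligand-binding chain for interleukin 10. Its 367 bp region inside the gene at chr9:45264518-45264885 had 9.06 and 2.67 CPM in VAT Tregs of males, 0.898 and 0.821 in those of females, 0.727 and 0.418 in spleen Tregs, and 0.770 and 0.433 in CD4 cells. Both male VAT Treg libraries lay above the other 6, all of which stayed under 1 CPM, but replicate 1 was far above replicate 2. Log2 fold changes were 2.79 ± 0.50 over female VAT (adjusted p = 1.33e-05), 3.47 ± 0.52 over spleen (adjusted p = 2.11e-08) and 3.35 ± 0.59 over CD4 cells (adjusted p = 2.72e-06). Without male VAT Treg replicate 1 they were 1.61, 2.27 and 2.16, with adjusted p values of 0.335, 0.0948 and 0.184. A 247 bp region 1.56 kb outside the gene at chr9:45252029-45252276, also assigned to BC049352, had 6.53 and 4.48 CPM in VAT Tregs of males, 2.59 and 1.41 in those of females, 3.03 and 3.76 in spleen Tregs, and 1.73 and 2.31 in CD4 cells. It was higher in male VAT Tregs by 1.45 ± 0.40 over female VAT (adjusted p = 0.0148) and 1.44 ± 0.43 over CD4 cells (adjusted p = 0.0156) on the log2 scale. Those calls were lost without male replicate 1 (0.213 and 0.242), without female VAT Treg replicate 1 or 2 (0.0569 or 0.461) and without CD4 replicate 1 or 2 (0.168 or 0.0655). They were also lost under the Wald test (0.124 and 0.0883) and narrow-region TMM (0.0555 and 0.0687).

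Il20ra and Il20rb form a receptor for the interleukin 20 group of cytokines, and of their 4 and 6 regions 3 were called, each more open in CD4 cells. A 293 bp region in Il20ra, a ligand-binding chain, at chr10:19718695-19718988 had 7.51 and 11.8 CPM in CD4 cells, 4.50 and 4.37 in VAT Tregs of males, 3.69 and 4.69 in those of females, and 3.03 and 3.04 in spleen Tregs. The CD4 libraries lay above all Treg libraries, and the log2 fold change of male VAT Tregs over CD4 cells was -1.14 ± 0.31 (adjusted p = 0.0076). A 77 bp region in the same gene had means of 3.27 CPM in CD4 cells and 0.648 in male VAT Tregs (-2.38 ± 0.71, adjusted p = 0.0162). Il20rb, the partner chain, had a 4233 bp region with means of 35.4 CPM in CD4 cells and 23.3 in male VAT Tregs (-0.60 ± 0.19, adjusted p = 0.0329). Without CD4 replicate 2 the adjusted p values of the 3 were 0.374, 0.144 and 0.321. Without male VAT Treg replicate 1 the Il20ra regions had 0.0588 and 0.245, without replicate 2 Il20rb had 0.101, and without CD4 replicate 1 the 77 bp region had 0.084. The 293 bp and Il20rb calls missed the threshold under the Wald test (0.0548 and 0.0667), and the latter with library size alone (0.156) and with the replicate number as a block term (0.0588). The other Il20ra regions had log2 fold changes of -0.46 and 0.07 over CD4 cells, and the other 5 of Il20rb ran from -0.44 to 1.09, with adjusted p values of at least 0.331. Il10rb, the signalling chain for interleukin 10 and the interferon lambdas, shares its called region with Ifnar2.

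Ifnar2, Il10rb, Ifnar1 and Ifngr2 lie next to each other on chromosome 16 and encode chains for type I interferon, interleukin 10 and interferon gamma. Ifnar1, a signalling chain for type I interferon, had a 371 bp region 8.88 kb outside the gene at chr16:91475785-91476156. Its CPM was 20.7 and 13.9 in VAT Tregs of males, 8.88 and 11.5 in those of females, 5.46 and 6.09 in spleen Tregs, and 6.74 and 10.2 in CD4 cells. The male VAT Treg libraries were the highest and the spleen libraries the lowest, with no overlap between VAT Tregs of either sex and spleen Tregs. The log2 fold change was 1.58 ± 0.24 over spleen (adjusted p = 2.31e-08), 0.78 ± 0.23 over female VAT (adjusted p = 0.0304) and 1.02 ± 0.25 over CD4 cells (adjusted p = 0.00159). The spleen call was kept in all 10 alternatives, at an adjusted p of at most 0.0027. The other 2 were lost without male VAT Treg replicate 1 (0.483 and 0.209). The first of these was also lost without female replicate 1 or 2 (0.532 or 0.105), and the second without CD4 replicate 1 (0.13). Over female VAT it was lost too under the Wald test (0.25), narrow-region TMM (0.204) and library size alone (0.0531), and over CD4 cells with narrow-region TMM (0.0756).

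The Ifnar1 promoter printed above lay in a 3611 bp region that did not follow. Its CPM was 42.6 and 29.3 in VAT Tregs of males, 35.7 and 35.4 in those of females, 31.4 and 39.2 in spleen Tregs, and 23.5 and 31.6 in CD4 cells. These ranges overlapped, and the log2 fold change over spleen was 0.03 with an interval of -0.33 to 0.39. A 304 bp region 5.73 kb inside the gene at chr16:91490944-91491248 had 10.4 and 5.33 CPM in VAT Tregs of males, 7.68 and 6.45 in those of females, 4.12 and 3.88 in spleen Tregs, and 4.815 and 4.904 in CD4 cells. VAT Tregs of both sexes lay above spleen Tregs, and the log2 fold change of male VAT over spleen was 1.01 ± 0.29 (adjusted p = 0.0133). It was lost without male replicate 1 (0.564), spleen replicate 1 (0.0733) or spleen replicate 2 (0.163), under the Wald test (0.139) and with narrow-region TMM (0.111). The 3247 bp region that lies in both Ifnar2 and Il10rb, at chr16:91404805-91408052, had means of 20.4 CPM in male VAT Tregs and 12.1 in CD4 cells, a log2 fold change of 0.75 ± 0.22 (adjusted p = 0.0162). That call was lost without male replicate 1 (0.263) or CD4 replicate 1 (0.221), under the Wald test (0.0574) and with narrow-region TMM (0.162).

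Ifngr2, the signalling chain of the interferon-gamma receptor, had a 4133 bp region 11.1 kb outside the gene at chr16:91531866-91535999. It had 59.5 and 71.7 CPM in CD4 cells, 50.3 and 45.8 in VAT Tregs of females, 41.9 and 40.2 in those of males, and 29.2 and 31.3 in spleen Tregs. The 4 groups did not overlap, with CD4 cells highest and spleen Tregs lowest. The log2 fold change of male VAT Tregs over CD4 cells was -0.68 ± 0.18 (adjusted p = 0.00467), and that of female VAT over spleen Tregs 0.66 ± 0.18 (adjusted p = 0.0244). The difference between male VAT and spleen missed the threshold (smallest adjusted p of the gene 0.133). The CD4 call was lost without CD4 replicate 2 (0.163). The spleen call was lost without any 1 of its 4 libraries (0.15 to 0.516), with the replicate block (0.0637), narrow-region TMM (0.173) and library size alone (0.0727).

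Ifngr1, the ligand-binding chain for interferon gamma, had regions that differed in opposite directions. Of its 11 regions, 4 were higher in male VAT than in spleen Tregs, 3 were higher in male VAT Tregs than in CD4 cells and 1 was lower. A 278 bp region 97.2 kb upstream at chr10:19494496-19494774 had 5.77 and 4.80 CPM in VAT Tregs of males, 4.49 and 3.29 in those of females, 2.18 and 1.55 in spleen Tregs, and 1.93 and 1.44 in CD4 cells. VAT Tregs of both sexes lay above spleen Tregs and CD4 cells, with log2 fold changes of male VAT of 1.55 ± 0.40 over spleen (adjusted p = 0.00402) and 1.67 ± 0.45 over CD4 cells (adjusted p = 0.00564). A 240 bp region 93.4 kb upstream at chr10:19498274-19498514 showed the other order. It had 9.05 and 7.79 CPM in CD4 cells, 1.84 and 1.81 in VAT Tregs of males, 2.10 and 1.99 in those of females, and 3.52 and 2.39 in spleen Tregs. The CD4 libraries lay above all 6 Treg libraries, and the log2 fold change of male VAT Tregs was -2.19 ± 0.40 (adjusted p = 7.24e-06), a call kept in all 10 alternatives. Both regions lie in the body of the predicted gene Gm33104, though the table assigns them to Ifngr1.

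Inside the gene, a 359 bp Ifngr1 region 2.58 kb from the start at chr10:19594526-19594885 had 11.2 and 5.76 CPM in VAT Tregs of males, 7.38 and 6.57 in those of females, 3.27 and 4.84 in spleen Tregs, and 3.66 and 4.04 in CD4 cells. VAT Tregs of both sexes again lay above the other cells, by 1.05 ± 0.29 for male VAT over spleen (adjusted p = 0.00846) and 1.16 ± 0.32 over CD4 cells (adjusted p = 0.00787). The 4837 bp region over the start had 52.0 and 34.2 CPM in VAT Tregs of males, 35.3 and 40.8 in those of females, 42.7 and 41.4 in spleen Tregs, and 31.4 and 36.2 in CD4 cells. Those ranges overlapped, and the log2 fold change over spleen was 0.05, interval -0.30 to 0.40. The other called Ifngr1 regions lay outside the gene, by 100 kb (167 bp wide), 11.9 kb (3695 bp) and 59.8 kb (3745 bp). Over spleen the first had 1.73 ± 0.52 (adjusted p = 0.019) and the second 0.63 ± 0.19 (adjusted p = 0.0209). Over CD4 cells the third had 0.74 ± 0.22 (adjusted p = 0.016). In the 3695 bp region the libraries of the compared groups overlapped, at 42.1 and 28.5 CPM in male VAT and 15.4 and 29.4 in spleen Tregs.

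The 7 Ifngr1 calls higher in male VAT Tregs were each lost without male VAT Treg replicate 1, at adjusted p values of 0.067 (278 bp), 0.513 (359 bp), 0.248 (167 bp) and 0.452 (3695 bp) over spleen. Over CD4 cells they were 0.0799 (278 bp), 0.535 (359 bp) and 0.303 (3745 bp). Over spleen, leaving out replicate 2 gave 0.155 (278 bp) and 0.383 (167 bp), and leaving out replicate 1 gave 0.195 (359 bp) and 0.703 (3695 bp). Over CD4 cells, leaving out replicate 1 gave 0.0847 (359 bp) and 0.214 (3745 bp), and leaving out replicate 2 gave 0.127 (278 bp) and 0.0604 (359 bp). The Wald test gave 0.123 (359 bp), 0.134 (167 bp) and 0.582 (3695 bp) over spleen and 0.0962 (359 bp) and 0.0629 (3745 bp) over CD4 cells. Narrow-region TMM gave 0.0978, 0.0583, 0.257, 0.106 and 0.167 in that order, and library size alone 0.0923 for the 3695 bp region. No direction changed in any of them. The plot of Ifngr1 and Tgfbr2 regions in genome order shows these values.

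**Figure D3:**
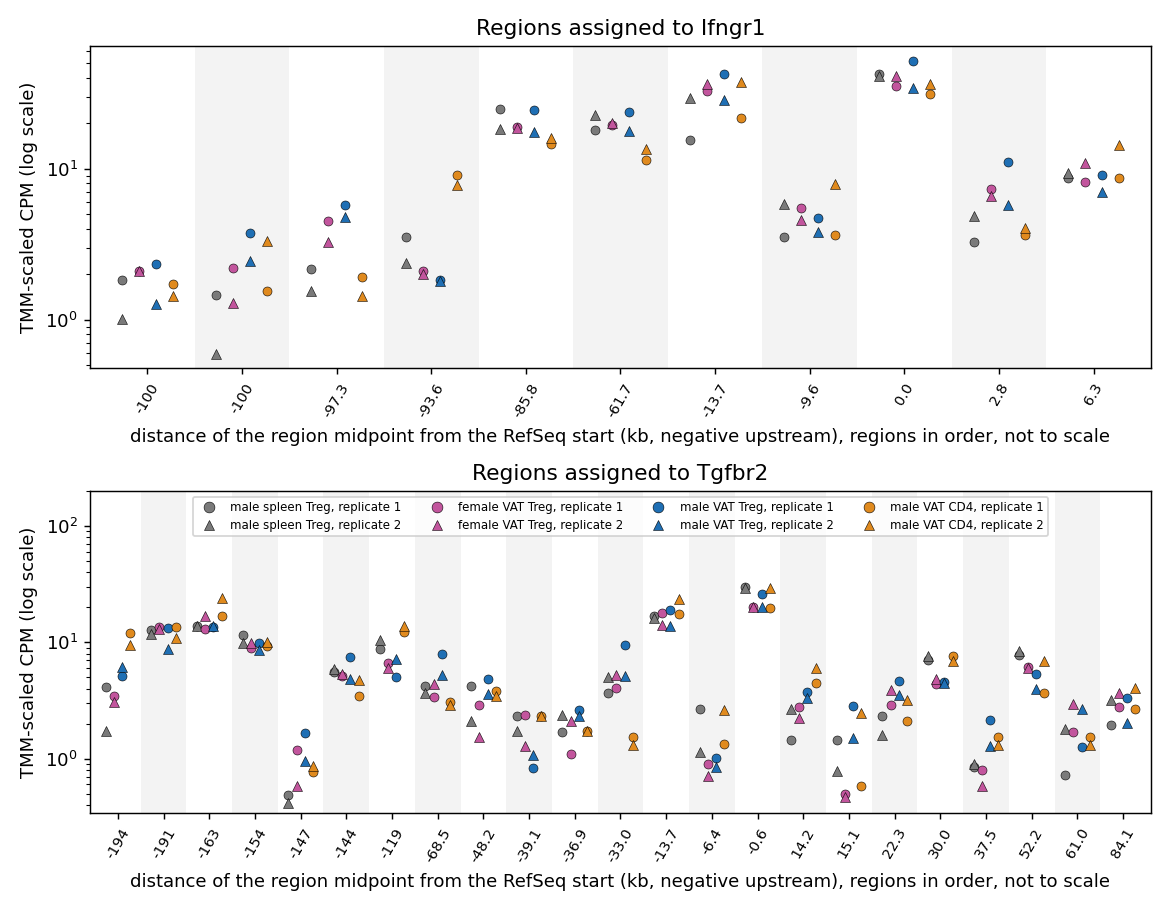
TMM-scaled CPM (log axis) of the 11 Ifngr1 regions and the 23 Tgfbr2 regions in the 8 libraries, ordered by the distance of the region's midpoint from the RefSeq start. Values are per region and not per length, and widths differ; the orange CD4 points are highest in the narrow Ifngr1 region at -93.6 kb.

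gp130, encoded by Il6st, transmits the signals of interleukins 6, 11 and 27, leukaemia inhibitory factor and oncostatin M. A 3747 bp region 44.2 kb outside the gene at chr13:112416161-112419908 was least open in male VAT Tregs. It had 9.06 and 8.42 CPM there, 12.4 and 11.7 in female VAT Tregs, 16.0 and 16.8 in spleen Tregs, and 18.3 and 20.5 in CD4 cells. The 4 groups did not overlap, with male VAT Tregs lowest and CD4 cells highest. The log2 fold change of male VAT Tregs was -0.90 ± 0.22 over spleen (adjusted p = 0.00199) and -1.15 ± 0.23 over CD4 cells (adjusted p = 5.04e-05). The CD4 call was kept in all 10 alternatives, and the spleen call in all but leaving out spleen replicate 2 (adjusted p = 0.0639). Against female VAT it was -0.46 (adjusted p = 0.351). The region over the Il6st start had 20.4 and 18.7 CPM in male VAT Tregs and 15.0 to 23.9 elsewhere, and its log2 fold change over spleen was 0.03 (interval -0.37 to 0.42).

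Specific chains of this family (partners of gp130, and Il31ra, which pairs with Osmr instead) had no called region in any comparison. Il27ra, the interleukin 27 receptor chain, had 1 region inside the gene, with 14.4 and 9.81 CPM in VAT Tregs of males, 13.0 and 14.6 in those of females, 13.6 and 10.8 in spleen Tregs, and 11.8 and 12.3 in CD4 cells. These ranges overlapped, and the log2 fold changes of male VAT Tregs were -0.16 over female VAT, 0.03 over spleen and 0.03 over CD4 cells, each with an interval that spans 0. Il11ra1, Lifr, Osmr and Il31ra, which bind interleukin 11, leukaemia inhibitory factor, oncostatin M and interleukin 31, had 3, 3, 2 and 2 regions. Their smallest adjusted p values in male over female VAT were 0.854, 0.611, 0.609 and 0.575, and those over CD4 cells 0.75, 0.355, 0.903 and 0.58.

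Of the receptors for colony-stimulating factors and their relatives, Csf2ra and Crlf2 had called regions. Csf2ra binds granulocyte-macrophage colony-stimulating factor, and its only region, 4589 bp over the start at chr19:61224975-61229564, had 70.6 and 56.5 CPM in VAT Tregs of males, 59.2 and 57.9 in those of females, 43.4 and 43.9 in spleen Tregs, and 41.4 and 52.8 in CD4 cells. VAT Tregs of both sexes lay above spleen Tregs, and male VAT was higher than spleen by 0.54 ± 0.17 on the log2 scale (adjusted p = 0.0335). Leaving out male VAT Treg replicate 1 (0.233), spleen replicate 1 (0.234) or spleen replicate 2 (0.208) ended the call, as did the replicate block (0.0742), the Wald test (0.0513), narrow-region TMM (0.203) and library size alone (0.0596). The region is also assigned to Gm4242. Crlf2, the specific chain for thymic stromal lymphopoietin, had a 341 bp region 5.73 kb outside the gene at chr5:109548635-109548976. It had 11.3 and 7.57 CPM in VAT Tregs of males, 4.99 and 7.51 in those of females, 6.18 and 4.24 in spleen Tregs, and 3.27 and 4.62 in CD4 cells. The male VAT Treg libraries were the highest, though replicate 2 lay just above a female library, and the log2 fold change was 0.92 ± 0.28 over spleen (adjusted p = 0.0222) and 1.26 ± 0.31 over CD4 cells (adjusted p = 0.00226). These were lost without male replicate 1 (0.353 and 0.174), spleen replicate 2 (0.404) and CD4 replicate 1 (0.0851), the first also under the Wald test (0.197), and both with narrow-region TMM (0.149 and 0.0615). Il3ra, Il5ra and Csf3r, the chains for interleukin 3, interleukin 5 and granulocyte colony-stimulating factor, had 3, 1 and 1 regions and none was called, the smallest adjusted p over spleen being 0.204, 0.694 and 0.323.

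In the interleukin 17 receptor family, 2 of the 3 Il17rd regions were more open in male VAT Tregs than in CD4 cells. A 231 bp region in the gene had means of 4.92 CPM in male VAT Tregs and 1.90 in CD4 cells (1.35 ± 0.42 on the log2 scale, adjusted p = 0.0249), and a 143 bp region had 2.32 and 0.505 (2.22 ± 0.74, adjusted p = 0.0403). Both were lost without male VAT Treg replicate 1 (0.422 and 0.279) or CD4 replicate 1 (0.306 and 0.163), and the narrower one without CD4 replicate 2 (0.268) and with the replicate block (0.0593). The Wald test gave 0.189 and 0.133, and narrow-region TMM 0.132 and 0.0785. The third region, 3255 bp over the start, had a log2 fold change of -0.31 (adjusted p = 0.593). Il17rc and Il17re, which pair with the common chain of the family, share a region and had none called, with smallest adjusted p values of 0.838 and 0.232 in male over female VAT.

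TGF-beta signals through Tgfbr2, which binds the ligand, and Tgfbr1, which is then activated, while Tgfbr3 (betaglycan) presents the ligand. Regions of Tgfbr2 moved in both directions between male VAT Tregs and CD4 cells. A 263 bp region 32.9 kb upstream at chr9:116208271-116208534 had 9.57 and 5.12 CPM in VAT Tregs of males, 4.09 and 5.28 in those of females, 3.64 and 5.02 in spleen Tregs, and 1.54 and 1.30 in CD4 cells. All 6 Treg libraries lay above both CD4 libraries, and the log2 fold change of male VAT Tregs was 2.40 ± 0.41 (adjusted p = 1.08e-06), a call kept in all 10 alternatives. A 2295 bp region 118 kb upstream at chr9:116293099-116295394 had the other order, with 12.3 and 13.7 CPM in CD4 cells, 5.00 and 7.25 in VAT Tregs of males, 6.68 and 5.99 in those of females, and 8.73 and 10.4 in spleen Tregs. The CD4 libraries were the highest, and the log2 fold change of male VAT Tregs over them was -1.12 ± 0.26 (adjusted p = 0.00104). A 328 bp region 194 kb upstream at chr9:116368996-116369324 had 12.1 and 9.52 CPM in CD4 cells, 5.13 and 6.18 in VAT Tregs of males, 3.49 and 3.05 in those of females, and 4.12 and 1.73 in spleen Tregs. Male VAT Tregs lay between CD4 cells (-0.94 ± 0.30, adjusted p = 0.0326) and spleen Tregs (1.05 ± 0.33, adjusted p = 0.0298). A 253 bp region 68.4 kb upstream had means of 6.60 CPM in male VAT Tregs and 2.98 in CD4 cells (1.17 ± 0.37, adjusted p = 0.025).

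Without male VAT Treg replicate 1 the adjusted p over CD4 cells was 0.11 for the 2295 bp region, 0.243 for the 328 bp region and 0.376 for the 253 bp region, and over spleen the 328 bp region had 0.0486. Removing replicate 2 of male VAT Tregs (0.116) or of spleen Tregs (0.671) ended the 328 bp call over spleen. Leaving out CD4 replicate 1 or 2 gave 0.347 or 0.0607 for the 328 bp region and 0.116 or 0.178 for the 253 bp region. The Wald test gave 0.184 (328 bp) over spleen, and 0.196 (328 bp) and 0.117 (253 bp) over CD4 cells. Narrow-region TMM gave 0.142 for the first and 0.109 for the last, and library size alone 0.0532 and 0.11 for the 328 bp region over spleen and CD4 cells. No region of Tgfbr2 was called between male and female VAT Tregs. The 4429 bp region over its start had 26.2 and 20.3 CPM in VAT Tregs of males, 20.4 and 20.1 in those of females, 30.2 and 29.4 in spleen Tregs, and 19.6 and 29.1 in CD4 cells. Spleen Tregs lay above the VAT Tregs of both sexes there, but the log2 fold changes of -0.35 for male VAT (interval -0.72 to 0.03) and -0.56 for female VAT (interval -0.94 to -0.17, adjusted p = 0.173) missed the threshold.

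Tgfbr3 had 3 regions, all under 1000 bp. A 152 bp region 26.4 kb outside the gene at chr5:107080024-107080176 had 6.55 and 7.79 CPM in CD4 cells, 0.887 and 0.427 in VAT Tregs of males, 1.596 and 1.291 in those of females, and 0.970 and 1.55 in spleen Tregs. Both CD4 libraries lay above all 6 Treg libraries, and the log2 fold change of male VAT Tregs over CD4 cells was -3.35 ± 0.51 (adjusted p = 4.08e-08), a call kept in all 10 alternatives. Tgfbr1 had 1 region, 5151 bp over its start, with 49.2 and 46.6 CPM in VAT Tregs of males, 47.4 and 49.2 in those of females, 57.5 and 54.3 in spleen Tregs, and 50.8 and 55.8 in CD4 cells. Spleen Tregs were above the VAT Tregs, but the log2 fold change of male VAT over spleen was -0.22 with an interval of -0.56 to 0.12, and over female VAT it was -0.01 (interval -0.35 to 0.34).

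CPM is given here per kb because widths differ between genes, but values per kb also differed with width. Group means in the 83 bp and 2939 bp Osmr regions were 17.49 to 29.65 and 3.15 to 3.88 CPM per kb. The 307 bp Il21r and 136 bp Il10ra regions below therefore cannot be ranked against the wide ones. For 6 regions over a start and above 1000 bp, the group means in CPM per kb were 9.30 to 10.9 for Tgfbr1, 7.63 to 9.96 for Ifnar1, 6.99 to 8.92 for Ifngr1, 4.56 to 6.73 for Tgfbr2, 4.53 to 5.40 for Il6st and 3.52 to 7.46 for Il2rg. The last was the only one of these called in a comparison. The Il21r start lay in a region of 307 bp with 14.0 to 23.2 CPM per kb, lowest in CD4 cells, and the log2 fold change of male VAT Tregs over CD4 cells was 0.66 with an interval of 0.04 to 1.29 (adjusted p = 0.233). The 136 bp Il10ra region used for the level of that gene had 14.0 to 24.8 CPM per kb and no call, its interval in male over female VAT spanning -0.70 to 1.05.

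Male VAT Tregs had the highest group mean in 37 of the 115 receptor regions, or 32.2%, beside 26.0% of all regions. Under 1000 bp it was 23 of 57, or 40.4%, beside 35.3%, and at 1000 bp or more 14 of 58, or 24.1%, beside 20.8%. Spleen Tregs were highest in 19 of the 58 wide receptor regions (32.8%, beside 25.9%) and in 9 of the 57 narrow ones (15.8%, beside 24.1%). These shares changed with male VAT Treg replicate 2 alone as that group's value. Then 22 receptor regions (19.1%, beside 28.6% of all regions) were highest in male VAT Tregs. They were 18 of the narrow (31.6%, beside 27.8%) and 4 of the wide ones (6.9%, beside 29.1%). A single library was set against means of 2 libraries there, and replicate 1 alone was not tried, so dependence on replicate 1 was not tested. The plot of folds with 1 male VAT Treg library left out gives the called regions of the sex and tissue comparisons.

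**Figure D4:**
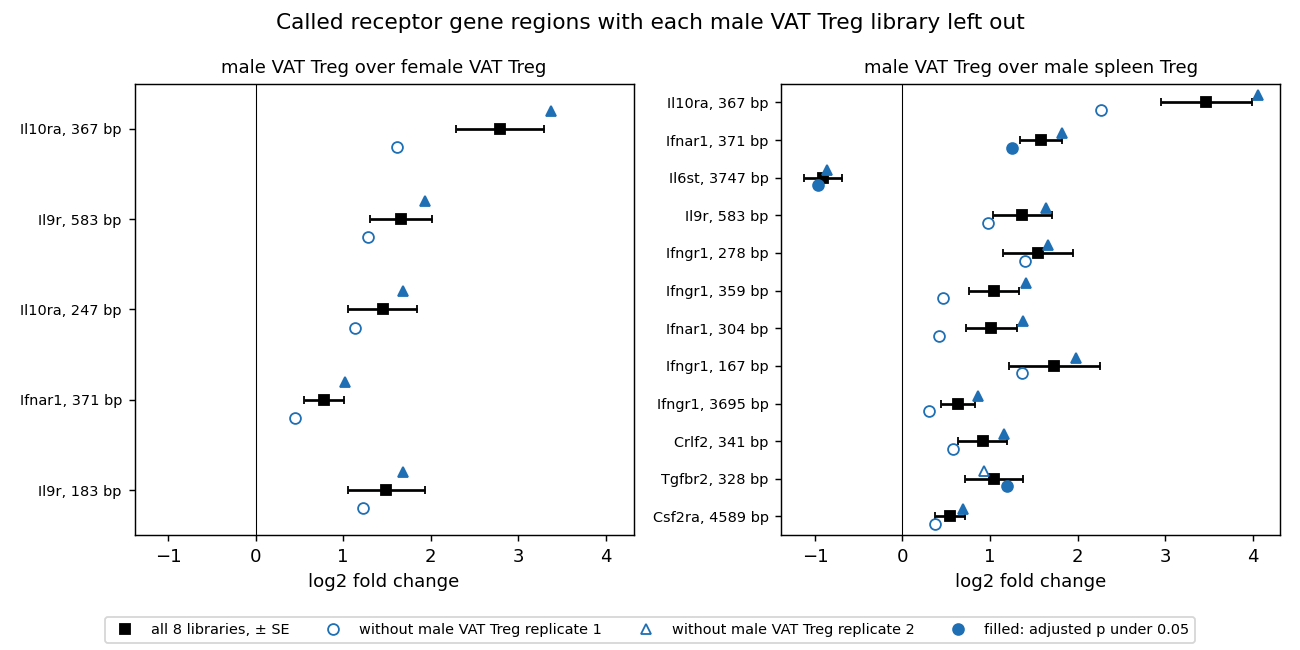
log2 fold change of the called receptor regions in male VAT Tregs over female VAT Tregs and over male spleen Tregs, with all 8 libraries (square, ± SE) and with male VAT Treg replicate 1 (circle) or 2 (triangle) left out; filled symbols have an adjusted p under 0.05. Without replicate 1 no region is called on the left and 2 higher regions, of Ifnar1 and Tgfbr2, and the lower Il6st region are called on the right.

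Other cytokine receptor chains, 15 genes with the specific chains for several interleukins and the ST2 and interleukin 1 receptors among them, had 65 regions tested. In male over female VAT Tregs 7 were higher and 0 lower, 13 higher and 2 lower over spleen, 15 higher and 4 lower over CD4 cells, and 2 higher and 0 lower in female VAT over male spleen. The shares higher were 10.8%, 20%, 23.1% and 3.08% in that order, beside 2.04%, 4.64%, 5.18% and 1.18% of all regions, and median log2 fold changes were 0.31, 0.29, 0.12 and 0.09. The 2 lower over spleen and the 4 lower over CD4 cells, of 65, were also larger shares than those of all regions, 2.09% and 2.51%. In the other comparisons 0 were lower. The counts without male VAT Treg replicate 1 were 1 higher and 0 lower over female VAT, 4 and 3 over spleen, and 4 and 4 over CD4 cells. Il17ra, the common chain for interleukin 17 cytokines, had a 399 bp region with 13.6 and 6.82 CPM in male VAT Tregs and 1.90 and 1.29 in female VAT Tregs (2.68 ± 0.37, adjusted p = 1.46e-09, and 0.00362 without male replicate 1). In Il1rl1, the receptor of interleukin 33, 401 bp and 367 bp regions were called between the sexes but had adjusted p values of 0.947 and 0.558 without that library, and the first of them also over spleen (0.271 without it). Il4ra had a 3093 bp region with 53.4 and 32.0 CPM in male VAT, 33.1 and 26.6 in female VAT, and 12.5 and 11.7 in spleen Tregs (1.84 ± 0.20 and 1.31 ± 0.20 over spleen, adjusted p = 1.78e-15 and 1.82e-07). Il12rb2 was lower in male VAT Tregs than in CD4 cells in a 333 bp region (-1.95 ± 0.27, adjusted p = 6.01e-10) and higher in female VAT than in spleen Tregs in a 285 bp region (1.61 ± 0.47, adjusted p = 0.0457). Il1r2 (1.32 ± 0.21, adjusted p = 3.42e-07) and Il18rap (2.59 ± 0.44, adjusted p = 8.65e-07) were higher than in CD4 cells.

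Downstream of these receptors, the 20 genes of Janus kinases, STAT and SMAD factors and their SOCS inhibitors had 126 regions tested, with median log2 fold changes of -0.01 over female VAT, 0.08 over spleen and 0.15 over CD4 cells. In male over female VAT Tregs 1 was higher, at the SMAD inhibitor Smad7 (1.99 ± 0.60, adjusted p = 0.0365, and 0.238 without male replicate 1), and 1 lower, at Jak3 (-1.64 ± 0.47, adjusted p = 0.022). Over spleen 18 were higher and 2 lower, with Stat3 and Jak2 among the higher. The 393 bp Stat3 region had 6.46 and 4.26 CPM in male VAT, 3.69 and 4.11 in female VAT, and 0.242 and 0.418 in spleen Tregs, with log2 fold changes over spleen of 3.89 ± 0.52 (adjusted p = 1.82e-10) and 3.41 ± 0.54 (adjusted p = 5.66e-07). VAT Tregs of both sexes lay above spleen Tregs there. Over CD4 cells 13 were higher and 8 lower, the lower led by Smad4 (-3.58 ± 0.55, adjusted p = 5.69e-08) and Jak1 (-2.58 ± 0.41, adjusted p = 1.29e-07). In female VAT over male spleen 8 were higher and 0 lower, among them Socs3 (1.26 ± 0.29, adjusted p = 0.00263). The shares higher were 0.794% over female VAT, 14.3% over spleen, 10.3% over CD4 cells and 6.35% in female VAT over spleen, beside 2.04%, 4.64%, 5.18% and 1.18% of all regions. Over CD4 cells 6.35% were lower, beside 2.51% of all regions, and in the other comparisons the share lower was under that of all regions. Neither this list nor the other receptor chains were split by width. Narrow regions were called higher more often in each comparison, with 10.2% of all narrow regions over spleen. Without male VAT Treg replicate 1 fewer regions of this list were called higher in each comparison of male VAT Tregs, as among all regions. Shares of all regions lower in that fit are not given. A change in the lower counts of either list therefore cannot be told from a change over all regions.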

How the data were processed

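ATAC-seq counts of 8 libraries were analysed. Raw counts, deposited by the authors in a single table with 1 column per library and no normalisation, were used. Per the submitters' processing notes Subread 1.6.2, HOMER 4.9, featureCounts and limma were used on GRCm38 (mm10); which tool did what, and how regions were called, is not given in the sources used here. Whether region starts count from 0 or 1 is not stated. The table lists 62205 entries, reduced to 46624 distinct regions; 46512 on chromosomes 1 to 19, X and Y with a gene were used, and filterByExpr kept 45709. Genes are those the table assigns, and distances are to RefSeq gene bodies of GRCm38.p6. The 8 libraries were fitted together by quasi-likelihood in edgeR 4.0.16 under R 4.3.3, with TMM scaling and 4 residual degrees of freedom, an F test per comparison and Benjamini-Hochberg adjustment over all regions. SE was taken as log2 fold change over the root of F, and intervals are 95%. With 2 pooled libraries a group, p-values measure the spread between these libraries, which may be technical. Reads carry no molecular identifiers. The script was tested on simulated data. DESeq2 1.42.0 Wald tests, other scalings, no filter, a replicate block and leaving out each library were the alternatives. List counts and highest-group shares without male VAT Treg replicate 1 were added after seeing the data. Named were all regions called, the 6 with the smallest adjusted p per direction in full, and the start or level region of 10 genes, with up to 3 other pathway genes per list. A gene that this rule names is not reported here. The genes, lists and tests were chosen with earlier results of these data known.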

Additional observations from a re-analysis of the deposited data

How the results depend on the processing

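Of the 44 calls at receptor regions over the 4 comparisons, 5 were kept in all alternatives run and 0 changed direction. Under the DESeq2 Wald test 20 of the 44 were kept, with TMM on regions under 1000 bp 21, with library size alone 37, and with DESeq2 size factors or without the low-count filter 44. Regions called higher in male over female VAT Tregs numbered 2 in place of 5 under the Wald test and 2 with TMM on regions under 1000 bp. Over spleen the count higher was 3 and 4 in place of 11, and the count lower 2 in place of 1 with TMM on narrow regions. Over CD4 cells the count higher was 6 and 4 in place of 15. In female VAT over male spleen it was 1 in place of 3 with TMM on narrow regions. That scaling moved the median log2 fold change of all regions to -0.17 over spleen and -0.25 over CD4 cells, and library size alone moved it to 0.11 over CD4 cells.

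Leaving out 1 library gave 0 to 7 higher and 0 to 1 lower in male over female VAT, 2 to 16 and 0 to 3 over spleen, 1 to 25 and 4 to 8 over CD4 cells, and 0 to 2 higher in female VAT over male spleen. Without male VAT Treg replicate 1, 9 of 41 calls were kept, and without replicate 2, 39 of 41. Such fits assume that the lone library left varies like the other groups. With the replicate block 40 of 44 calls were kept, and those lost were Csf2ra over spleen, the 143 bp Il17rd and the Il20rb region over CD4 cells, and Ifngr2 in female VAT over spleen. Same-numbered libraries did not deviate together (correlations from -0.15 to 0.07 between groups), so the numbers were not taken as pairing. Levels in many narrow regions were a few CPM, but calls were lost in narrow and in wide regions. The 4589 bp Csf2ra call over spleen was kept in 3 of 10 alternatives, and the 152 bp Tgfbr3 call over CD4 cells in 10 of 10. The cause of these losses was not tested.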
